A study of Arabidopsis thaliana with 4 samples.

Results

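Transcript levels of 10 TCP transcription factor genes were compared between shoots of the Arabidopsis thaliana mutant ang3 and shoots of its control accession Landsberg erecta (Ler). The genes were taken by locus identifier, and each was represented by 1 probe, among 25665 loci named on the array. They comprise the 7 class II genes TCP2, TCP3, TCP4, TCP5, TCP10, TCP13 and TCP24 and the 3 class I genes TCP14, TCP15 and TCP20. All 10 passed the signal filter and were therefore tested among 20155 genes and unnamed probes. Every one of the 10 probes was well above background in the ang3 channel and in the Ler channel on all 4 arrays.

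On each of 4 Agilent oligonucleotide arrays, ang3 and Ler RNA were hybridised together under different dyes. The ang3 RNA carried Cy5 on replicates 1 and 3 and Cy3 on replicates 2 and 4. The ang3 and Ler seedlings were grown in vitro at 21 °C with 16 h of light after 3 days of cold, and the green parts were taken, described as meristem, young leaves and cotyledons. The sample labels call this tissue shoot apex and give stage 1.02, whereas the series text gives stage 1.03. As background, ang3 is known as a mutant allele of RPL5B, a gene of the large subunit of the cytosolic ribosome. The kind of lesion is not given in the sources used here. The series text names 4 harvested replicates per genotype with 3 repetitions each, and does not say which arrays shared extracts. If arrays shared extracts, the p-values would measure partly technical spread.

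TCP proteins bind DNA through a basic helix-loop-helix type domain that gives the family its name, from TEOSINTE BRANCHED1, CYCLOIDEA and PCF. Class II proteins of the CINCINNATA (CIN) type slow cell division at the leaf margin and drive leaf maturation, and plants that lack several of them have crinkled leaves. Transcripts of TCP2, TCP3, TCP4, TCP10 and TCP24 are cleaved through the microRNA miR319, while those of TCP5, TCP13 and TCP17 lack its target site. Class I proteins are mostly linked to cell division and growth, and TCP20 was found at promoters of cell cycle and ribosomal protein genes. The genes act redundantly within each class.

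Ratios are given as log2 of ang3 over Ler, with the mean taken over 4 arrays. A gene was called when its Benjamini-Hochberg adjusted p from limma was under 0.05, in a fit with a term for dye orientation. The SE comes from the limma model, and the SD is the spread of the 4 ratios. Over all tested genes 5283 of 20155 (26.2%) were called, with 3018 (15%) higher and 2265 (11.2%) lower in ang3. Between 19678 and 21332 probes per array were well above background in ang3, against 19224 to 21128 in Ler. The arrays differed in spread, with an SD over genes of 0.198 on replicate 1 against 0.285 to 0.335 on the others. The RPL5B probe had ratios of -0.36, 0.10, 0.02 and 0.08 on replicates 1 to 4, with a mean of -0.04 (SE 0.069, SD 0.22, adjusted p = 0.70 with limma), and gave no check of the labels.

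Of the 10 TCP genes TCP15 rose in ang3, TCP13 fell and the other 8 were not called. This is 1 gene higher (10 tested, against 15% of all tested genes) and 1 lower (against 11.2%), or 20% called against 26.2% of all tested genes. Calls with the same sign on all 4 arrays made up 24.6% of all tested genes, and both called members were of this kind. The share of called genes was thus not above that of the array as a whole. The median ratio of the 10 genes was -0.04, against 0.01 over all tested genes, and the median size was 0.06, against 0.09. Ratios of 7 genes lay below 0, whereas 1 of 10 lay below 0 with median centring. That setting centred each array on the median of its spots, tested or not, without control and outlier spots. The median of all tested genes was then 0.14. The largest size was below 2-fold on every array and for every member. The spread between arrays was lower than the median SD of all tested genes (0.10) for 6 of the 10.

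**Figure D1:**
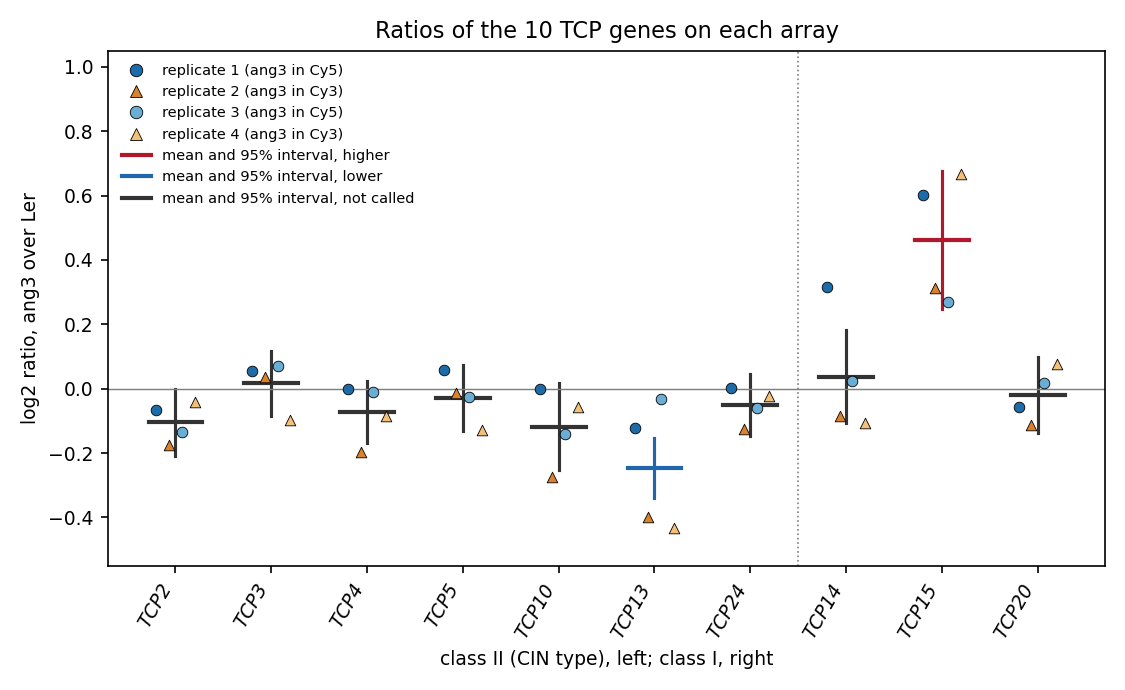
Log2 ratios of ang3 over Ler (y axis) of the 10 TCP genes (x axis) on each array, with circles for arrays with ang3 in Cy5 and triangles for ang3 in Cy3. Horizontal bars are means and vertical lines 95% intervals of the limma fit; TCP15 lies above 0 on all 4 arrays and TCP13 and TCP2 below 0 on all 4.

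TCP15 (At1g69690), which acts with its close relative TCP14 in internode growth and leaf shape, had the largest ratio of the 10. Its level on the log2 scale was 9.72, 9.50, 9.44 and 9.74 in ang3 on replicates 1 to 4, against 9.12, 9.19, 9.17 and 9.07 in Ler. Every ang3 level lay above every Ler level. The level averaged 9.60 ± 0.15 in ang3 and 9.14 ± 0.05 in Ler (SD, n = 4 each). Ratios were 0.60, 0.31, 0.27 and 0.67, so that replicates 2 and 3 stood below replicates 1 and 4 and the split did not follow the dye. The transcript rose by 0.46, or 1.38-fold (SE 0.084, SD 0.20, 95% interval 0.25 to 0.68; adjusted p = 0.020 with limma), a size above that of 95.6% of all tested genes. The call was lost without replicate 1 (0.38, adjusted p = 0.060), without replicate 3 (0.55, adjusted p = 0.058), without replicate 4 (0.37, adjusted p = 0.061) and with ratios scaled between arrays (0.56, adjusted p = 0.088). The share called over all tested genes also fell in these fits, from 26.2% to 14.4%, 2.66%, 12.8% and 19.7% in the same order.

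TCP14 (At3g47620), linked to embryonic growth in seeds and to cell proliferation in young internodes, was not called. Its ratios were 0.32, -0.09, 0.02 and -0.11 on replicates 1 to 4, above 0 on both arrays with ang3 in Cy5 and below 0 on both with ang3 in Cy3. The mean was 0.04 (SE 0.057, SD 0.19, 95% interval -0.11 to 0.18; adjusted p = 0.65 with limma). Signal of the TCP14 spot was low on replicate 4 in both channels. Levels in ang3 were 11.31, 10.92, 10.93 and 9.60 on replicates 1 to 4, against 11.00, 11.00, 10.91 and 9.71 in Ler. On that array the mean of both channels lay 1.31 log2 units under the median of the other arrays, a drop beyond 1 unit that 28 of 20155 genes (0.139%) showed there. Without replicate 4 the ratio was 0.04, as with it (adjusted p = 0.72). It was -0.04 without replicate 1, 0.11 without replicate 3 and 0.24 with median centring (adjusted p = 0.68, 0.26 and 0.058), and was not called in any of these fits.

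TCP20 (At3g27010), a binder of cell cycle and ribosomal protein gene promoters, had ratios on either side of 0. They were -0.06, -0.11, 0.02 and 0.08, with a mean of -0.02 (SE 0.046, SD 0.083, 95% interval -0.14 to 0.10; adjusted p = 0.79 with limma). Levels were 8.33, 8.11, 8.36 and 8.35 in ang3, against 8.39, 8.23, 8.35 and 8.27 in Ler, and the genotypes overlapped.

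Within arrays TCP15 stood above TCP14 by 0.29, 0.40, 0.24 and 0.77 in its log2 ratio, a mean difference of 0.43 ± 0.24 (SD, n = 4). The difference was above 0 on 4 of 4 arrays. An exact two-sided sign permutation gave p = 0.125, the smallest that 4 arrays allow, and 0.33 adjusted over the 8 pairs of related genes compared. This permutation test can therefore not go below 0.05 with 4 arrays, whatever the size of the difference. The same limit holds for all 8 pairs, which were chosen after values were seen.

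**Figure D2:**
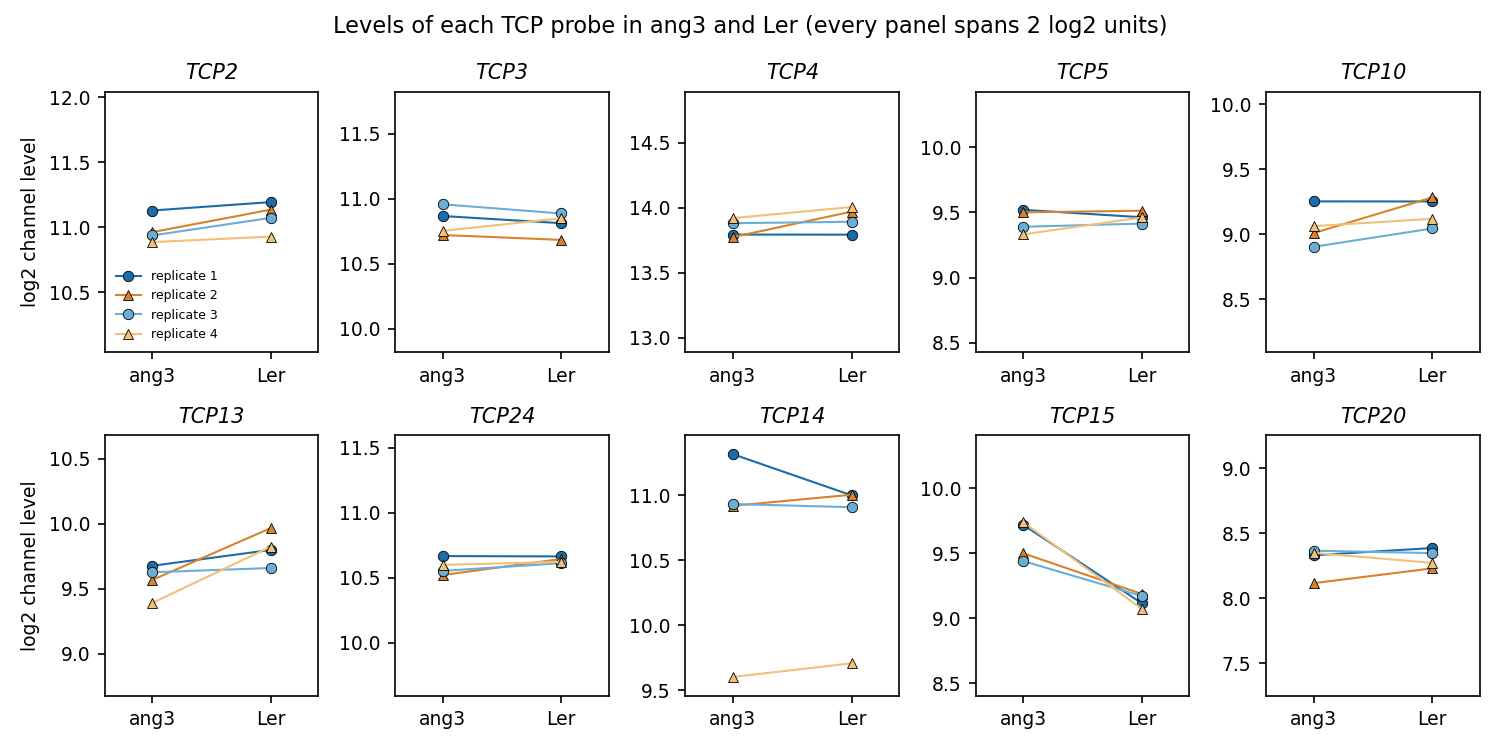
Channel levels on the log2 scale after normalization (y axis, each panel 2 units high) of each TCP probe in ang3 (left) and Ler (right), with a line per array. TCP15 levels in ang3 (9.44 to 9.74) lie above those in Ler (9.07 to 9.19), and TCP14 is low in both genotypes on replicate 4; levels of different probes are not comparable.

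TCP13 (At3g02150), a class II gene free of miR319 control, fell in ang3 by 0.25 on the log2 scale and was lower on 4 of 4 arrays. Its level was 9.68, 9.57, 9.63 and 9.39 in ang3 on replicates 1 to 4, against 9.80, 9.97, 9.66 and 9.82 in Ler. The ranges touched, since the highest ang3 level lay above the lowest Ler level. The levels averaged 9.56 ± 0.13 in ang3 and 9.81 ± 0.13 in Ler (SD, n = 4 each), which was 1.19-fold higher in Ler. Ratios were -0.12 and -0.03 with ang3 in Cy5, against -0.40 and -0.43 with ang3 in Cy3. The dye term of the fit took up this split (0.17, unadjusted p = 0.0054, adjusted p = 0.25 with limma), and the SE of 0.036 was far below the SD of 0.20 (95% interval -0.34 to -0.15; adjusted p = 0.014).

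The TCP13 call did not hold without the dye term (adjusted p = 0.073), with ratios scaled between arrays (adjusted p = 0.054) or with median centring (-0.08, adjusted p = 0.35). It was also lost without replicate 1, 2, 3 or 4, with adjusted p between 0.0501 and 0.069 and ratios of -0.27 to -0.22. With 1 array left out, 2.66% to 14.4% of all tested genes were called, against 26.2% with all arrays. Set against the median of all genes, the ratio was -0.26 with loess and -0.22 with median centring.

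TCP5 (At5g60970), of the same miR319-free group, was not called, with ratios of 0.06, -0.01, -0.02 and -0.13 and a mean of -0.03 (SE 0.040, SD 0.077, 95% interval -0.13 to 0.08; adjusted p = 0.64 with limma). TCP17 (At5g08070), the third gene of that group and no member of the 10, had ratios of 0.16, -0.39, -0.06 and -0.25. Its mean was -0.14 (SE 0.053, SD 0.24; adjusted p = 0.12 with limma). Like TCP13 it was lower with ang3 in Cy3 (mean -0.32) than in Cy5 (mean 0.05). The TCP13 ratio lay below that of TCP5 on 4 of 4 arrays, by -0.22 ± 0.16 on average (SD, n = 4; exact p = 0.125, adjusted 0.33), and below that of TCP17 on 3 of 4 (mean -0.11, exact p = 0.38, adjusted 0.43).

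None of the 5 miR319-targeted genes was called at an adjusted p under 0.05 with limma, against 26.2% of all tested genes, and 1 (TCP2) had an unadjusted p under 0.05. Their ratios ran from -0.12 to 0.02 with a median of -0.07. TCP2 (At4g18390), a repressor of leaf margin growth, had ratios of -0.06, -0.17, -0.14 and -0.04, below 0 on all 4 arrays. Its mean was -0.10 (SE 0.041, SD 0.061, 95% interval from -0.21 to just under 0; adjusted p = 0.12). TCP24 (At1g30210), its close relative, had ratios of 0.0025, -0.12, -0.06 and -0.02 and a mean of -0.05 (SE 0.038, SD 0.055, adjusted p = 0.36). The TCP2 ratio was the lower on 4 of 4 arrays, by -0.05 ± 0.025 (SD, n = 4; exact p = 0.125, the smallest that 4 arrays allow, adjusted 0.33).

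TCP3 (At1g53230), TCP4 (At3g15030) and TCP10 (At2g31070) form the other miR319-targeted group. TCP4, which promotes leaf maturation and jasmonate synthesis, had ratios of 0.00055, -0.20, -0.01 and -0.09 and a mean of -0.07 (SE 0.037, SD 0.090, 95% interval -0.17 to 0.02; adjusted p = 0.21 with limma). Its level was 13.79, 13.77, 13.88 and 13.92 in ang3, against 13.79, 13.97, 13.89 and 14.00 in Ler. TCP10 had the lowest mean of the 5, at -0.12 (SE 0.053, SD 0.12, 95% interval -0.25 to 0.02; adjusted p = 0.16), with -0.27 on replicate 2 and 0.00071 on replicate 1. TCP3, a regulator of boundary genes in shoot organs, had ratios of 0.06, 0.04, 0.07 and -0.10 and a mean of 0.02 (SE 0.039, SD 0.077, 95% interval -0.08 to 0.12; adjusted p = 0.78). With median centring TCP3 was called higher (0.21, adjusted p = 0.034), which is 0.07 above the median of all genes under that setting. Differences among these 3 genes within arrays had exact p-values of 0.25 to 0.5 (adjusted 0.4 to 0.5), with mean differences of -0.13 for TCP10 minus TCP3, -0.04 for TCP10 minus TCP4 and 0.09 for TCP3 minus TCP4.

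Ordered by mean ratio, the 10 genes ran from TCP13 (-0.25) through TCP10, TCP2, TCP4, TCP24, TCP5, TCP20, TCP3 and TCP14 to TCP15 (0.46). The 95% intervals of neighbours in that order overlapped, except between TCP14 (upper bound 0.18) and TCP15 (lower bound 0.25). For the 8 genes that were not called, the intervals ran no lower than -0.25, a level 1.19-fold higher in Ler, and no higher than 0.18, a level 1.14-fold higher in ang3. The 7 class II genes had a median of -0.07 and the 3 class I genes one of 0.04.

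Per the series text the authors asked for a ratio beyond 1 on the log2 scale in either direction together with a p under 0.05 for the single array. In the authors' deposited scanner values none of the 40 member ratios met both parts, and 4 met the part on p. These 4 scanner ratios, turned to log2 of ang3 over Ler, were 0.75 on replicate 1 and 0.70 on replicate 4 for TCP15. For TCP13 they were -0.45 on replicate 2 and -0.51 on replicate 4.

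The 3 tested loci nearest to TCP15 were found by the root mean square difference of the 4 log2 ratios. GATA17 (At3g16870), of a GATA zinc finger protein, differed by 0.10, At1g36940 by 0.11 and At3g25590 by 0.11. Their mean ratios were 0.49 (adjusted p = 0.0087 with limma), 0.43 (adjusted p = 0.011) and 0.38 (adjusted p = 0.017).

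Of the other 14 TCP genes of the genome 13 had a probe and 10 were tested. TCP6, TCP16 and TCP18 were dim, being well above background in ang3 on 0, 1 and 2 arrays, with the same counts in Ler. Of the 10 tested, 3 rose and 1 fell, or 40% called against 26.2% of all tested genes. All 4 called genes are of class I, but so are all the tested genes of this list except TCP12 and TCP17, and the 4 did not share a direction. TCP23 (At1g35560) rose by 0.23 (SE 0.045, SD 0.083; adjusted p = 0.024 with limma), with ratios of 0.25, 0.16, 0.18 and 0.34. TCP9 (At2g45680) rose by 0.22 (SE 0.056, SD 0.12; adjusted p = 0.044) and TCP8 (At1g58100) by 0.16 (SE 0.038, SD 0.056; adjusted p = 0.040), both reported to activate salicylic acid synthesis. All 3 were higher in ang3 on 4 of 4 arrays.

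TCP19 (At5g51910), which acts with TCP20 in leaf senescence, fell by 0.22 on the log2 scale (SE 0.053, SD 0.11; adjusted p = 0.038 with limma), with ratios of -0.09, -0.32, -0.31 and -0.18. TCP21, known as a repressor in the circadian clock, had a mean of -0.17 (adjusted p = 0.15) and -0.48 on replicate 3. Without replicate 1 TCP21 was called lower (-0.28, adjusted p = 0.040), whereas it stood at -0.07 without replicate 3 (adjusted p = 0.49) and at -0.02 with median centring (adjusted p = 0.91). TCP7, TCP11, TCP12 and TCP22 had means between -0.09 and 0.02. These calls were less stable than their signs. Over all tested genes the called share also fell, from 26.2% to 14.4%, 10.3%, 2.66% and 12.8% without replicates 1, 2, 3 and 4. Without replicate 3 the adjusted p was 0.10 for TCP23, 0.16 for TCP9, 0.19 for TCP8 and 0.17 for TCP19. Without replicate 4 it was 0.067, 0.089, 0.12 and 0.071 in the same order of genes. Without replicate 1 it was 0.095, 0.14 and 0.13 for TCP23, TCP9 and TCP8, and without replicate 2 it was 0.067 for TCP8 and 0.13 for TCP19. With median centring TCP19 was at -0.04 (adjusted p = 0.77). With the processed signals TCP23 was the 1 gene of the list called, against 22.5% of all tested genes. Scaling between arrays ended the calls of TCP23 (adjusted p = 0.058) and TCP9 (0.060), and the normexp offset of 0 that of TCP8 (0.054). With no signal filter TCP9 (adjusted p = 0.061) and TCP19 (0.052) were not called.

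Of 13 genes reported as targets of class II TCPs 12 were tested, of which 3 rose, 2 fell and 7 were not called (41.7% called, against 26.2% of all tested genes). The lists were chosen with earlier results of these data known, so their shares are only descriptive. LOX2 (At3g45140), a jasmonate synthesis gene activated by TCP4 and repressed by TCP20, rose by 1.00 (SE 0.21, SD 0.55; adjusted p = 0.027 with limma), with a low value of 0.23 on replicate 1 beside 0.97, 1.47 and 1.33 elsewhere. AS1 (At2g37630), a repressor of meristem genes in leaves, rose by 0.40 (SE 0.062, SD 0.20; adjusted p = 0.015). KNAT1 (At4g08150), a homeobox gene that AS1 represses, rose by 0.32 (SE 0.041, SD 0.10; adjusted p = 0.012). All 3 were higher in ang3 on 4 of 4 arrays. The auxin genes IAA3 (At1g04240) and SAUR65 (At1g29460) fell by 0.34 (SE 0.074, SD 0.17, adjusted p = 0.031) and by 0.31 (SE 0.045, SD 0.22, adjusted p = 0.013). Each was lower on 4 of 4 arrays. SAUR65 was lower with ang3 in Cy3 (mean -0.49) than in Cy5 (mean -0.14), with only -0.04 on replicate 1. Its dye term was 0.18 (unadjusted p = 0.011, adjusted p = 0.26 with limma).

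The boundary genes CUC1, CUC2 and CUC3, held down by class II TCPs through miR164 and other routes, had means of 0.13 (adjusted p = 0.057 with limma), 0.01 (adjusted p = 0.84) and 0.10 (adjusted p = 0.12). KNAT2 stood at 0.20 (adjusted p = 0.058), HAT2 at -0.09, KRP1 at -0.05 and ARR16 at 0.01. With the processed signals CUC1 was called higher at 0.34 (adjusted p = 0.028), CUC3 at 0.19 (adjusted p = 0.039) and KNAT2 at 0.37 (adjusted p = 0.036). CUC1 was also called with a normexp offset of 0 (0.21, adjusted p = 0.037), and KNAT2 was called under 5 of 13 alternatives. YUC5 was not tested, being well above background on 1 array in ang3 and 0 in Ler. With the processed signals 6 of the class II targets rose and 1 fell, with IAA3 not called (adjusted p = 0.061). Under that setting 22.5% of all tested genes were called, with 2124 higher and 2417 lower. With median centring 0 fell, against 425 of 20155 tested genes, with IAA3 at -0.15 and SAUR65 at -0.16. Without replicate 3 AS1 (adjusted p = 0.070), KNAT1 (0.070), IAA3 (0.12) and SAUR65 (0.070) were not called, and without replicate 1 AS1 was not (0.054). The calls of LOX2 (adjusted p = 0.079), IAA3 (0.11) and SAUR65 (0.054) were lost without replicate 2, and those of LOX2 (0.098) and IAA3 (0.055) without replicate 4. In fits without 1 array the called share over all tested genes was 2.66% to 14.4%, against 26.2% with all arrays.

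**Figure D3:**
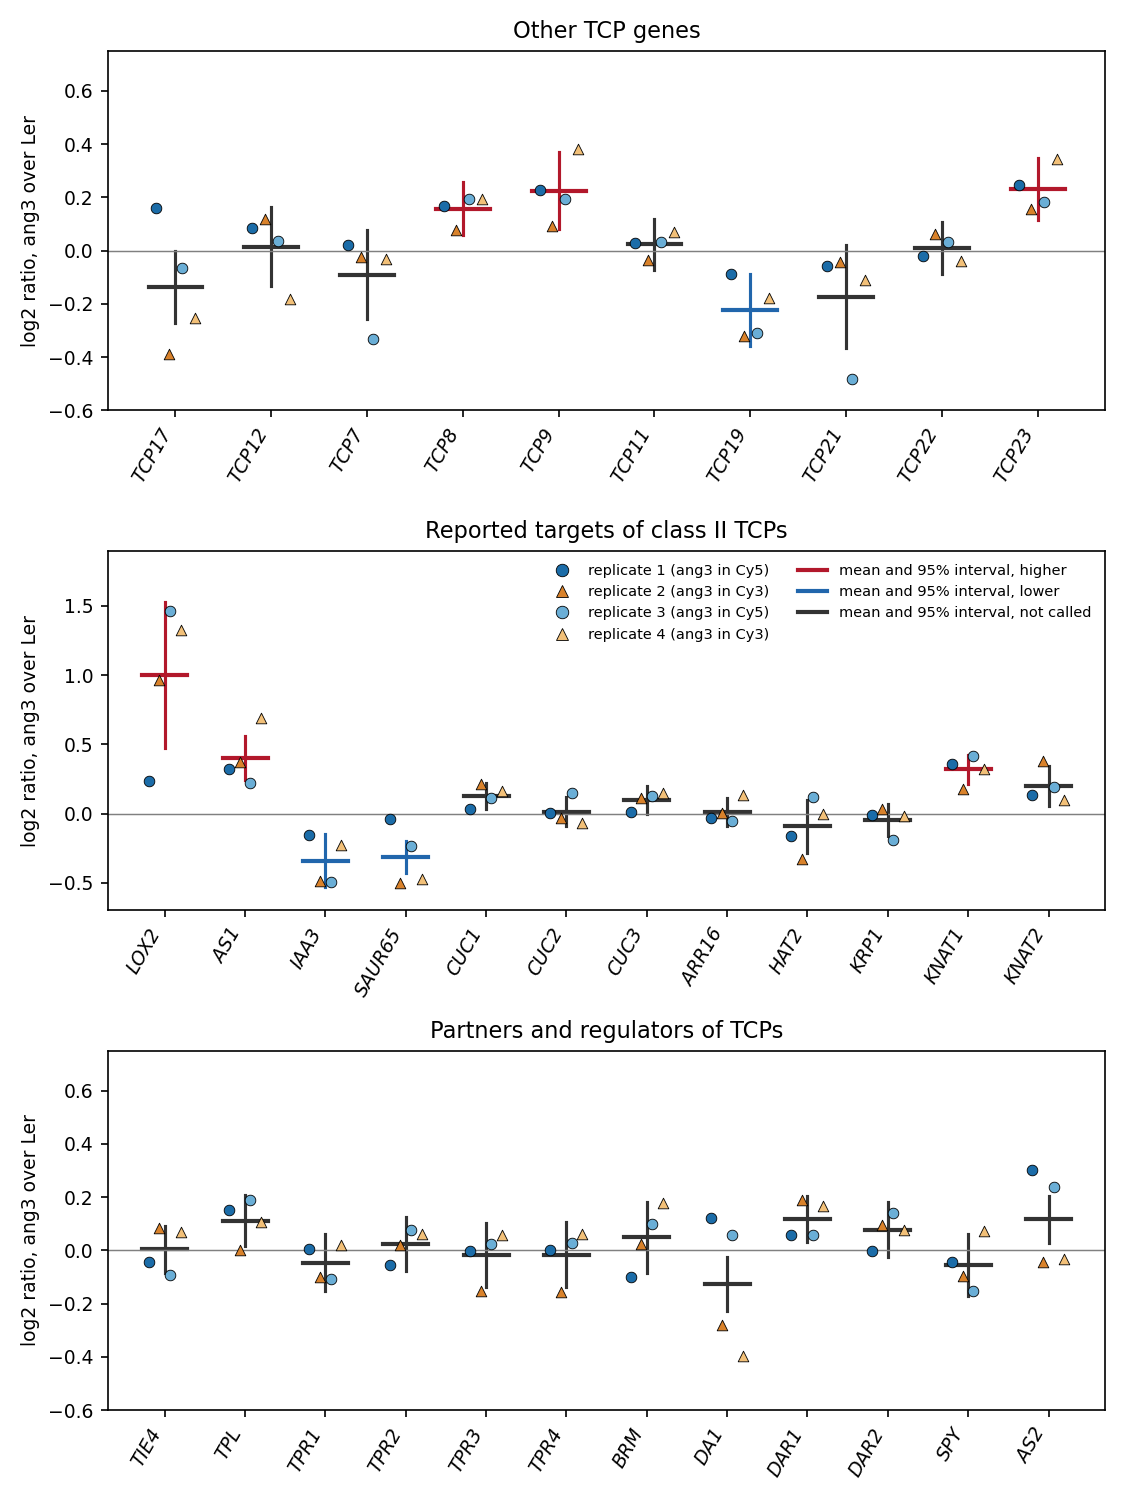
Log2 ratios of ang3 over Ler (y axis) of tested genes of 3 lists (other TCP genes, reported targets of class II TCPs, partners of TCPs), with a marker per array, the mean as a bar and the 95% interval of the fit as a line. TCP8, TCP9 and TCP23 lie above 0 on all 4 arrays, LOX2 is highest at 1.00, and no partner gene is called.

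Of 6 genes reported as targets of class I TCPs, CYCB1;1 and LOX2 rose and 4 were not called (33.3% called, against 26.2% of all tested genes). LOX2 is counted in both target lists. CYCB1;1 (At4g37490), a mitotic cyclin gene, rose by 0.39 (SE 0.033, SD 0.052; adjusted p = 0.0076 with limma), with ratios of 0.36, 0.42, 0.34 and 0.45. It kept its call under all 13 alternatives, with adjusted p up to 0.045. PCNA2, of the replication clamp, had a mean of -0.11 (adjusted p = 0.12) and CYCA2;3 one of -0.12 (adjusted p = 0.10). RBR1, the plant retinoblastoma gene, and CYCA1;1 stood at 0.02 each. Their ratios were above 0 with ang3 in Cy5 and below 0 with ang3 in Cy3, with RBR1 at 0.18 and 0.09 against -0.13 and -0.07.

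Of 15 genes of TCP partners and regulators 12 were tested, and none was called at an adjusted p under 0.05 with limma, against 26.2% of all tested genes, while 4 had an unadjusted p under 0.05. With median centring 6 of the 12 were called higher, as were 6952 of all 20155 tested genes, whose median was then 0.14. The corepressor genes TPL, TPR1, TPR2, TPR3 and TPR4, whose proteins are recruited to TCPs by TIE proteins, had means of -0.05 to 0.11. TIE1, TIE2 and TIE3 were not above background in either genotype on any array, and TIE4 stood at 0.0036. DA1, whose protein lowers the stability of TCP14 and TCP15 proteins together with its relatives DAR1 and DAR2, had ratios of 0.12 and 0.06 with ang3 in Cy5, against -0.28 and -0.40 with ang3 in Cy3 (mean -0.12, SE 0.039, SD 0.25; adjusted p = 0.075). DAR1 and DAR2 had means of 0.12 (adjusted p = 0.058) and 0.08 (adjusted p = 0.21). AS2, a TCP partner in repressing meristem genes, likewise stood at 0.30 and 0.24 where ang3 was in Cy5 and at -0.04 and -0.03 where it was in Cy3. The chromatin remodeller gene BRM and the glycosyltransferase gene SPY had means of 0.05 and -0.06. Loci of the precursors of miR319, miR164a and miR396b were not among the probe names and were not analysed here.

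Of 4 meristem markers, STM and KNAT1 rose by 0.36 (adjusted p = 0.0088 with limma) and 0.32, while WUS and CLV3 were not above background on any array and were not tested. Of 3 green leaf markers RBCS2B rose by 0.41 (adjusted p = 0.0074), LHCB1.3 fell by 0.44 and RBCS1A by 0.17. LHCB1.3 was lower with ang3 in Cy5 (mean -0.73) than in Cy3 (mean -0.16). Its dye term was -0.29 (unadjusted p = 0.0016, adjusted p = 0.24 with limma). Over all tested genes 15% were called higher and 11.2% lower. The STM call was lost without replicate 3 (adjusted p = 0.056), LHCB1.3 was not called with scaling between arrays or without the dye term, and RBCS1A was called under 5 of 13 alternatives. Of 6 root markers 4 passed the signal filter, with means of -0.03 to 0.09. None of the 4 was called with limma, against 26.2% of all tested genes, and 1 had an unadjusted p under 0.05. Signal of COBL9 and EXPA7 was low, being well above background on 3 arrays each in ang3 and on 2 and 1 in Ler. The part of these marker differences in the TCP ratios was not tested. In such bulk samples fewer cells of a type and less RNA per cell cannot be told apart.

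**Figure D4:**
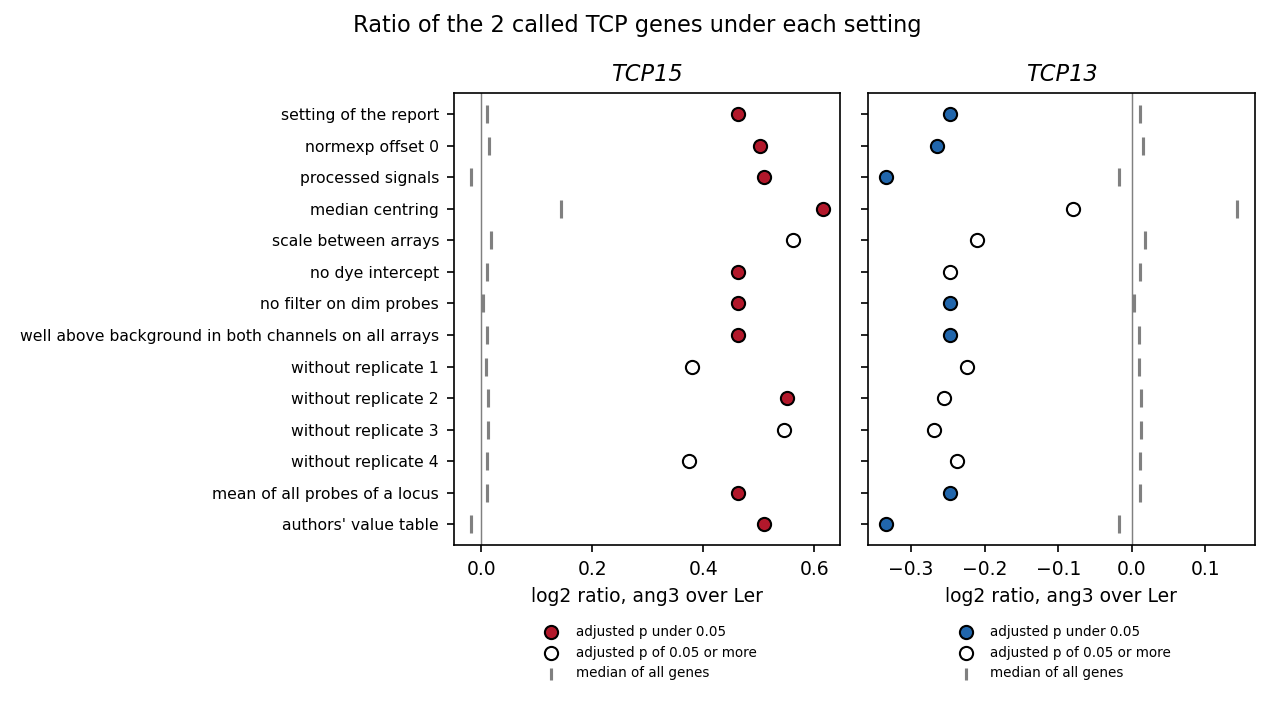
Log2 ratio of ang3 over Ler (x axis) of TCP15 (left) and TCP13 (right) under each setting (y axis), filled where the adjusted p was under 0.05, with a grey tick at the median of all genes. TCP15 stays between 0.37 and 0.62 and is called under 9 of 13 alternatives; TCP13 stays between -0.33 and -0.08 and is called under 6.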

How the data were processed

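All 4 arrays lay on 1 slide and came from 1 scan, which leaves no slide or scan batch to test. Which arrays shared extracts is not stated, so a batch of that kind could not be tested. Images were read with Feature Extraction 10.1.1.1, per the file headers and the submitters' processing notes. The deposited spot and background intensity values are medians per channel, without normalization; processed signals are background-subtracted and dye-normalized, per the file headers. The deposited log10 ratio is processed red over green, and the deposited p-value comes from the scanner software's error model for 1 array. The authors' value table holds log2 ratios, which followed the turned scanner ratios with r of at least 0.989; it has column medians of -0.045, 0.026, 0.0077 and -0.097, is thus not centred, and already runs as ang3 over Ler.

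In R 4.3.3 with limma 3.58.1, median signals were corrected with normexp (offset 50) and ratios normalized by loess within arrays, with control and outlier spots at weight 0. The offset draws ratios of dim spots toward 0. No spot was saturated. Ratios were turned to ang3 over Ler by the dyes in the labels. A probe was tested where its signal was well above background in either genotype on 3 or more arrays (20538 of 37478 probes). A locus took its brightest probe, which gave 18450 loci and 1705 unnamed probes. Of 25665 loci on the array 25449 are in the TAIR10.1 gene table, used for symbols. Coordinates are left out because no build is named in the files. Near-identical genes can share signal.

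The fit (lmFit, eBayes) had genotype and dye terms, with 2 residual and 3.03 prior degrees of freedom. The dye term passed for 0 genes with limma (3020 with an unadjusted p under 0.05). Levels are channel values after loess and Aquantile. The number of arrays limits precision. Differences between related genes were tested by exact sign permutation with scipy 1.17.1, the 8 pairs being chosen after values were seen. The fit was tested on simulated data. Alternatives were a normexp offset of 0, processed signals, median centring, scaling between arrays, no dye term, no or a stricter signal filter, leaving out each array, averaging probes, and the authors' table. Members and lists were chosen with earlier results of these data known. Named genes were the 10 members, other TCP genes, list members past the threshold or with a role described, and the 3 loci nearest to the called member with the largest ratio.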

Additional observations from a re-analysis of the deposited data

Results flagged for a closer look

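Levels and ratios of the 10 TCP genes were screened for an array standing apart from the others of its genotype, as 30 groups of 4 values, by Dixon's gap over range at its 95% critical value. Chance alone marks about 1 in 20 such groups, and 2 were marked. The TCP14 level in Ler was 9.71 on replicate 4, against 10.91 to 11.00 on the others (gap over range 0.93). On the same array the ang3 level of TCP14 was 9.60, and the spot's median intensity was 607 in ang3 and 780 in Ler, against 1617 to 3096 in ang3 and 1598 to 2631 in Ler on the other arrays, with no outlier mark on the spot. The TCP20 level in ang3 was 8.11 on replicate 2, against 8.33 to 8.36 on the others (gap over range 0.86). The cause of both was not tested.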

How the results depend on the processing

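Of 130 values of the 10 member ratios under the alternatives, 118 kept their side of the threshold, 11 lost a call (4 of TCP15, 7 of TCP13), 1 gained one (TCP3 with median centring) and none changed sign while called. The main counts were 1 member higher and 1 lower. With median centring 2 were higher and 0 lower, with scaling between arrays 0 and 0, and without a dye term 1 and 0. Leaving out 1 array gave 0 to 1 higher and 0 lower. Over all genes 3018 were higher and 2265 lower; median centring gave 6952 and 425, or 94.2% higher among those called against 57.1%, and the processed signals 46.8%. Leaving out 1 array gave 374 to 1688 higher and 162 to 1221 lower, with the fewest without replicate 3. The called share was then 2.66% to 14.4%, against 26.2% in the main fit. Each lone array of an orientation is then assumed to vary like the others. Of 104 list counts under the alternatives 78 stayed within 1.5 times and 26 moved. The cause of these shifts was not tested, beyond the lost array in the leave-one-out fits. Every ratio is paired within its array, and no further block was fitted because the labels name no pairs of arrays. All 10 member probes were well above background in both channels on every array.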

Other observations

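Of 4 flower markers and 2 guard cell markers, which belong to no TCP list, 2 of each kind were tested. Of these, 2 flower markers and 1 guard cell marker were called lower in ang3, against 11.2% of all tested genes. SEP3 (At1g24260), a floral homeotic gene, fell by 0.90 in ang3 (SE 0.14, SD 0.37; adjusted p = 0.015 with limma), with ratios of -0.53, -0.65, -1.07 and -1.34 on replicates 1 to 4. PI (At5g20240), also a floral homeotic gene, fell by 0.25 (adjusted p = 0.031), but had -0.0013 on replicate 1 and was called under 7 of 12 alternatives. Its size moved to -0.42 with a normexp offset of 0 and to -0.87 with the processed signals. The PI signal was low, with mean levels of 7.27 in ang3 and 7.52 in Ler. It was well above background on 3 arrays in ang3 and 4 in Ler, so its size is uncertain. AP1 and AG were not tested, being above background on 0 arrays in ang3 and 1 in Ler. Of the guard cell genes KAT1 (At5g46240), of a potassium channel, fell by 0.31 (SE 0.046, SD 0.095; adjusted p = 0.014), lower on 4 of 4 arrays, and At1g22690 stood at -0.29 (adjusted p = 0.066). Without replicate 3 neither SEP3 (adjusted p = 0.071) nor KAT1 (0.084) was called, and with median centring KAT1 was at -0.13 (0.25).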
